A study of Mus musculus with 40 samples.

Results

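Tnfaip6 encodes TSG-6, a secreted protein that binds hyaluronan, and the genes described here are those of the matrix it works in. The 6 members are Tnfaip6, Has1, Has2, Cd44, Vcan, and Ptx3, found by gene symbol in both tables of the series, so that all 6 were present, among 17402 genes listed for the genotype experiment and 15399 for the CsA experiment. The set was chosen by a measured value: of all protein-coding genes, Tnfaip6 showed the largest log2 rise after 2 h of angiotensin II (Ang-II) in control aortas, and the other 5 were added as genes of the same matrix. The rise at 2 h in controls is therefore given as a description with no test, as is every Tnfaip6 value that shares its libraries. The other 5 members were tested where those libraries recur, so such p-values are not independent of the choice.

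The RNA came from the aortas of male mice. Cn-Ctl mice are labelled as carrying a floxed CnB1 gene (Ppp3r1, the regulatory subunit of the phosphatase calcineurin) and no Cre, although the methods of the study also count mice with an unfloxed gene and Myh11-CreERT2 among its Cn-Ctl controls. SM-Cn-/- mice carried the floxed gene with Myh11-CreERT2, a transgene for a tamoxifen-inducible Cre driven by a smooth muscle promoter. Per the methods of the study, WT and CsA mice were 10 to 12 weeks old at the start. Both floxed genotypes received tamoxifen (1 mg daily for 5 days) at that age, also per the methods. After 6 weeks they were left untreated or infused with Ang-II (1 µg/kg/min, minipump). The labels give infusions of 2, 6, or 24 h, and the methods name only 2 and 24 h. WT mice were C57BL/6J, untreated or given the same dose of Ang-II for 2 or 24 h, and CsA mice were C57BL/6J that had carried a minipump with the calcineurin inhibitor cyclosporin A for 5 days at 5 mg/kg per day before the same steps. WT mice had no pump during those 5 days. Treated Cn-Ctl, WT, and CsA mice were kept only where systolic blood pressure exceeded 130 mmHg, whereas no such limit was set for treated SM-Cn-/- mice, so the treated arms of the genotype experiment also differ in this selection. The methods give this limit beside readings at 2 and 24 h and do not mention 6 h. SM-Cn-/- mice in which the deletion could not be verified, and CsA mice in which the drug's action in the thymus could not be, were left out by the study. Each library pools 3 aortas from which adventitia and perivascular tissue had been stripped. Every group has 3 libraries except untreated Cn-Ctl and Cn-Ctl at 24 h, which have 2. The study removed 1 untreated Cn-Ctl replicate because it lay far from the other 2 in a principal component analysis. The spread of that group is therefore the spread after this removal.

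Libraries of the genotype experiment held 2728007 to 10250178 assigned reads and those of the CsA experiment 18976266 to 38900009. Smooth muscle markers dominated every library, with a summed signal over 6 genes of 16245 to 49345, against 302 to 1349 for 6 endothelial markers. The sum of 6 adipocyte markers was 750 to 3415 in the genotype experiment and 624 to 6107 in the CsA experiment. The targeted gene overlapped between the genotypes, since Ppp3r1 signal was 45.7 to 134 (median 85.6) in the 10 Cn-Ctl libraries and 41.8 to 118 (median 76.3) in the 12 SM-Cn-/- libraries. This value counts reads over the whole gene in all cells of the aorta, so it does not check the loss of the floxed part. Because each library mixes all cells of the stripped aortas, fewer cells of a type and less RNA per cell cannot be told apart in any value below.

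Hyaluronan is a long sugar polymer made at the cell surface by the hyaluronan synthases, among them Has1 and Has2. TSG-6 transfers protein chains from inter-alpha-inhibitor onto hyaluronan, pentraxin 3 (Ptx3) and the large proteoglycan versican (Vcan) bind into the same network, and Cd44 is the main cell-surface receptor for the polymer. In arteries such a matrix is known to collect where smooth muscle cells migrate and divide and where leukocytes are held.

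The promoters of 4 members that rose in these data are printed because the results below turn on when those genes rose. RefSeq promoter windows (GRCm38.p6, 250 bases before to 50 bases after the start) were matched for 5 of the 6 members, all but Has2. Capitals mark matches, on either strand, to any of 12 motifs searched. The windows are chr2:52037863-52038162 on the plus strand for Tnfaip6, chr17:17855139-17855438 on the minus strand for Has1, chr2:102901616-102901915 on the minus strand for Cd44, and chr3:66219637-66219936 on the plus strand for Ptx3.
Tnfaip6: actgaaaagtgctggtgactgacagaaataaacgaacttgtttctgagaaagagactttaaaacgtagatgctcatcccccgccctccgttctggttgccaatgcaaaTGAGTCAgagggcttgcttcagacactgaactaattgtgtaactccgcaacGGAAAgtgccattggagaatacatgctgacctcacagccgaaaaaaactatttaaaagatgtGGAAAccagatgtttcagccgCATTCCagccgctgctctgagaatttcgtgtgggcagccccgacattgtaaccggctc
Has1: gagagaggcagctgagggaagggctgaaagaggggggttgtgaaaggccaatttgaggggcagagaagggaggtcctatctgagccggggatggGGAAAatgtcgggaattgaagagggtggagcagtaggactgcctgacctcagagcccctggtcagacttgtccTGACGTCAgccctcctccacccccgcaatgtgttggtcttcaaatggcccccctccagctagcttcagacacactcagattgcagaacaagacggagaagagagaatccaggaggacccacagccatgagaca
Cd44: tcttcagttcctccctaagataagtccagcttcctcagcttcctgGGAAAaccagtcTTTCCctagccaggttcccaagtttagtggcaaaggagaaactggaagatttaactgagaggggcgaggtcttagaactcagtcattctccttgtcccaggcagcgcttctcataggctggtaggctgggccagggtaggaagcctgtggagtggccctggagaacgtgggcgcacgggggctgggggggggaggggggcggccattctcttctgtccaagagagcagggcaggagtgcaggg
Ptx3: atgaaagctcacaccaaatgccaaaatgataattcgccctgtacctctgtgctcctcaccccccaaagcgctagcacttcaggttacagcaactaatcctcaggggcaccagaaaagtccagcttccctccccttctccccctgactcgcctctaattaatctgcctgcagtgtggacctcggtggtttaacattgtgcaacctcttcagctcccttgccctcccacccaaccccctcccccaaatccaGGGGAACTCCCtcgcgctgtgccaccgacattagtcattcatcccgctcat

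The windows differed in what they held. The Tnfaip6 window has 1 AP-1 motif (TGANTCA) from 142 to 136 bases before the start, a motif present in 7.81% of all 32851 RefSeq windows, and 1 TEAD motif (GGAATG, here on the other strand), which 14.7% of windows hold. The Has1 window has a complete CRE (TGACGTCA) from 83 to 76 bases before the start, found in 1.79% of windows. The short NFAT core (GGAAA) occurs at 2 places in Tnfaip6, 1 in Has1, and 2 in Cd44, and 61.3% of all windows contain it. Ptx3 lacks that core and has overlapping matches to the NF-kB motif at the start itself, a motif held by 8.46% of windows. The Vcan window (chr13:89742463-89742762, minus strand) holds NFAT cores only. No member window matched the TATA box (TATAAA), CArG, RUNX (TGTGGT), EGR (GCGTGGGCG), SMAD (GTCTAGAC), heat shock (GAANNTTC), or glucocorticoid motif searched, which are in 13.6%, 1.63%, 16.8%, 0.612%, 0.213%, 7.86%, and 0.475% of windows. A match is a run of letters and was not tested for binding.

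Values below are the deposited signal, of about the size of CPM, and changes are on the log2 scale after adding 0.5, which understates the change of weakly expressed genes. A gene passed the test where its adjusted p (limma with Benjamini-Hochberg adjustment over all protein-coding genes) was under 0.05. Set per kilobase of merged exons, untreated Cn-Ctl aortas were led by Vcan with 11.3 signal units per kb and Cd44 with 6.51, followed by Tnfaip6 with 1.04 and Ptx3 with 0.479, and no Has1 or Has2 read was found there. After 2 h of Ang-II in Cn-Ctl, Tnfaip6 led with 54.7 per kb, above Cd44 with 31.2 and Vcan with 12.3. After 24 h in WT the order was Cd44 with 34.7 per kb, Vcan with 10.5, Tnfaip6 with 6.39, Ptx3 with 5.39, Has1 with 3.62, and Has2 with 0.485.

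**Figure D1:**
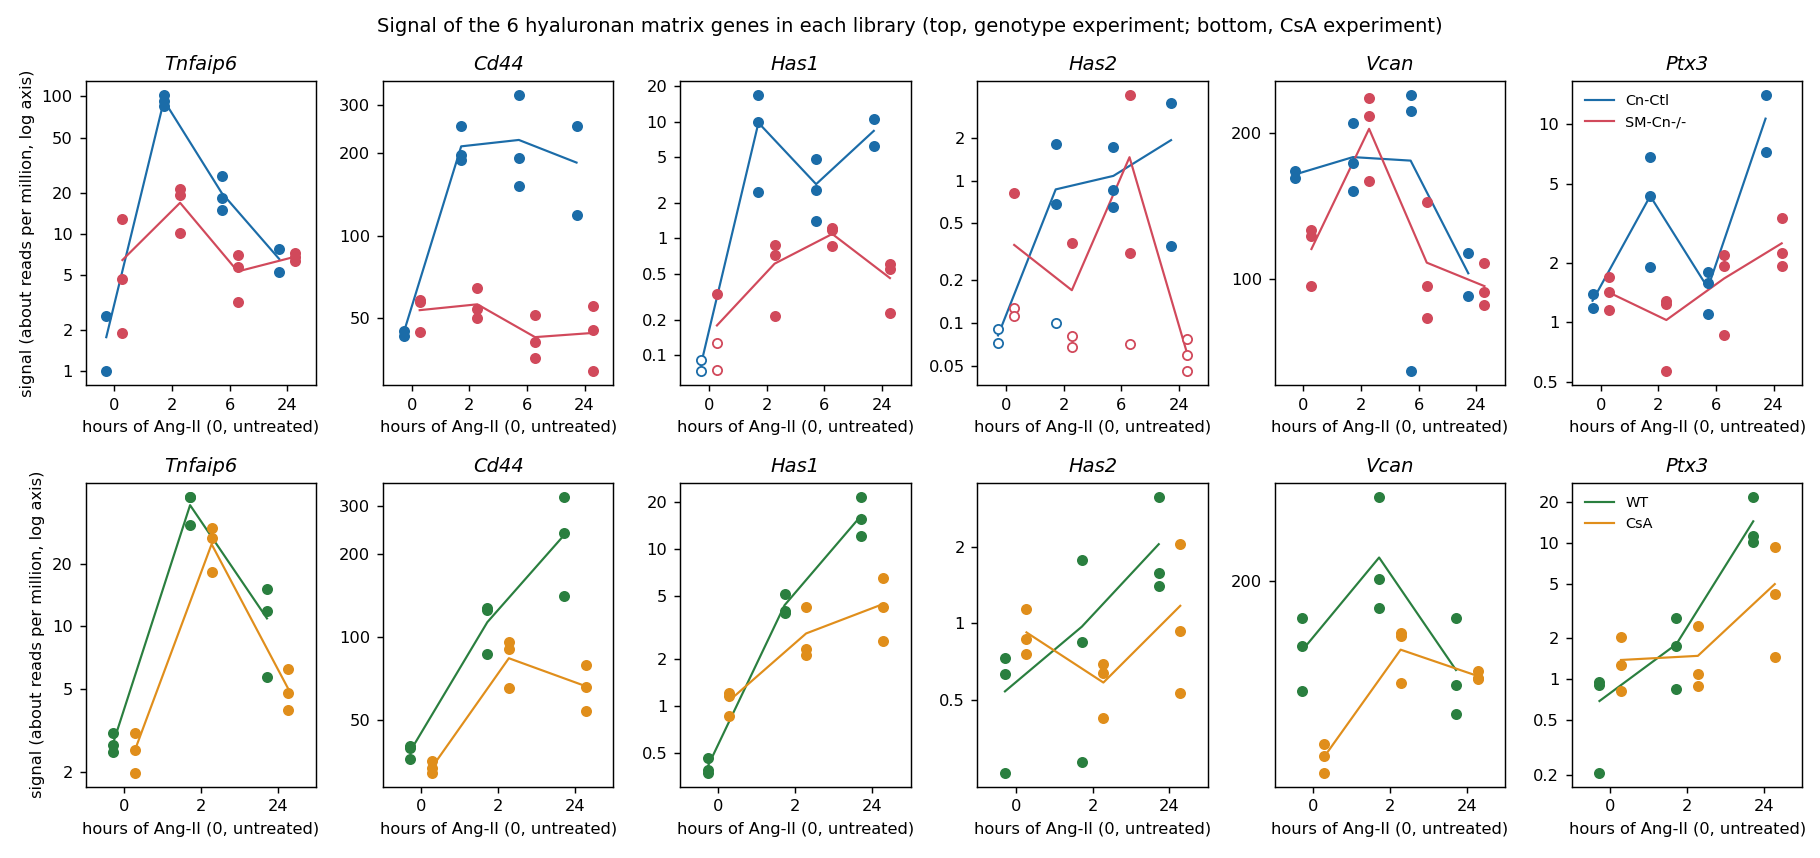
Signal of each member in every library (log axis, of about the size of CPM) against hours of Ang-II, with lines through the group means and open circles for libraries with 0 reads of the gene. Mean Tnfaip6 is highest at 2 h in every arm, at 16.9 in SM-Cn-/-, where the untreated and 2 h libraries overlap. Cd44 stays between 32.1 and 64.3 in all 12 SM-Cn-/- libraries. Has1 and Ptx3 are highest in WT at 24 h, at 12.1 to 21.5 and 10.2 to 21.97.

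Tnfaip6 (chromosome 2, 52038009 to 52056686, plus strand, GRCm38, ENSMUSG00000053475) was the gene the set was chosen by. Its signal was 2.55 and 1.00 in the untreated Cn-Ctl libraries, 103, 92.6, and 85.2 at 2 h, 14.99, 18.3, and 26.5 at 6 h, and 7.84 and 5.31 at 24 h. Libraries of successive times did not overlap, and the 2 h value stood above all others of the experiment. The difference at 2 h was 5.45 on the log2 scale, the first of 14424 protein-coding genes, and the next gene in that order, Hspa1b (an inducible heat shock protein), was at 5.15. These values are the ones the choice used.

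In SM-Cn-/- aortas Tnfaip6 signal was 12.8, 4.72, and 1.91 untreated, 21.1, 10.2, and 19.3 at 2 h, 7.07, 3.22, and 5.73 at 6 h, and 6.81, 6.41, and 7.31 at 24 h. The untreated libraries spread widely, and the highest of them lay inside the 2 h range. The change at 2 h was 1.59 ± 0.46 on the log2 scale (SE, 3 libraries a group), which did not pass the test (adjusted p = 0.106). Without untreated replicate 1, the high library, that change was 2.23 and passed (limma adjusted p = 0.00895). That library also had the highest sums of its group for mesothelial markers (48.7 against 4.59 and 4.72), adipocyte markers (3415 against 807 and 2637), and macrophage markers (109 against 61.0 and 81.3), and their part in its Tnfaip6 value was not tested. At 2 h every SM-Cn-/- library lay below every Cn-Ctl library, by a mean ratio of 5.55, given with no test since the Cn-Ctl libraries are those of the choice. At 6 h, where the libraries are others than those of the choice, Tnfaip6 was lower in SM-Cn-/- than in Cn-Ctl by 3.73-fold in the means (log2 difference -1.83 ± 0.46, limma adjusted p = 0.0379, no overlap). That call was lost in a fit of those groups alone (adjusted p = 0.137) and in 4 of 6 fits that left out 1 library, among them the fit without SM-Cn-/- replicate 2 (log2 difference -1.53, adjusted p = 0.174). At 24 h the genotypes overlapped, with means of 6.85 and 6.57.

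Ordered by mean, the genotype experiment ran from Cn-Ctl at 2 h (93.5) over Cn-Ctl at 6 h (19.9), SM-Cn-/- at 2 h (16.9), SM-Cn-/- at 24 h (6.85), Cn-Ctl at 24 h (6.57), untreated SM-Cn-/- (6.47), and SM-Cn-/- at 6 h (5.34) to untreated Cn-Ctl (1.78). Neighbours in this order were apart in all their libraries only between the first and the second, the third and the fourth, and the seventh and the eighth groups.

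The CsA experiment holds libraries that the choice did not use. Tnfaip6 signal was 3.09, 2.49, and 2.70 in untreated WT, 41.7, 30.8, and 42.0 at 2 h, and 11.9, 15.1, and 5.72 at 24 h. In CsA mice it was 2.55, 3.08, and 1.98 untreated, 18.2, 29.7, and 26.5 at 2 h, and 3.98, 4.77, and 6.23 at 24 h. All 6 libraries at 2 h stood above all 6 untreated ones. The rise came to 13.8-fold in the means of WT (log2 change 3.56 ± 0.28, limma adjusted p = 5.55e-07) and 9.78-fold in CsA (3.05 ± 0.28, adjusted p = 8.33e-06), the 14th and the 13th largest rises among the 13738 genes tested. By 24 h signal had fallen from the 2 h level by 1.85 on the log2 scale in WT (limma adjusted p = 0.000126) and by 2.19 in CsA (adjusted p = 0.00018), and in WT it was still above untreated by 1.71 (adjusted p = 0.000231). In CsA all 3 libraries at 24 h were above the untreated ones without passing (interval of the log2 change 0.26 to 1.45, limma adjusted p = 0.069), and DESeq2 called that rise. At 24 h Tnfaip6 in CsA was 2.19-fold below WT in the means, with overlap of the libraries, and the difference missed the threshold in limma (interval -1.57 to -0.38, adjusted p = 0.0535) and was called by edgeR and DESeq2. The 3 CsA libraries at 2 h all lay below the 3 WT libraries, at a mean ratio of 0.650, but the difference did not pass (95% interval of the log2 difference -1.22 to -0.03, limma adjusted p = 0.246), nor did the difference between the 2 h responses (interval -1.35 to 0.33, adjusted p = 0.581).

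The synthases differed from each other. Has1 (chromosome 17, 17843323 to 17855205, minus strand) was near the limit of detection untreated and rose in both control arms. Has2 (chromosome 15, 56665627 to 56694539, minus strand) passed the test only in WT at 24 h. It had 0 to 13 reads per library in the genotype experiment and 5 to 93 in the CsA experiment. In untreated Cn-Ctl, Has1 had 0 reads in both libraries. Its signal was 2.49, 16.9, and 9.88 at 2 h, 4.75, 2.58, and 1.41 at 6 h, and 6.18 and 10.5 at 24 h. Against a floor of 3 reads per untreated library the means were at least 17.01-fold higher at 2 h (no test), at least 5.07-fold higher at 6 h, and at least 14.5-fold higher at 24 h. The later changes passed the test (log2 change 2.43, limma adjusted p = 0.0247 at 6 h, and 3.88, adjusted p = 0.00142 at 24 h). The 6 h call rests on few reads, 45 over 3 libraries, and was lost with a pseudocount of 2 (log2 change 1.182, adjusted p = 0.113), in a fit of those groups alone (adjusted p = 0.136), and in 4 of 5 fits that left out 1 library.

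In SM-Cn-/- no library exceeded 1.22 for Has1 at any time. The 12 libraries held 0 to 9 reads each, 1 read in all in the untreated ones, so the ratios to untreated have wide counting intervals (16.04 with a 95% interval of 2.55 to 666 at 6 h) and none passed the test. Compared directly, Has1 was lower in SM-Cn-/- than in Cn-Ctl at 2 h (mean ratio 16.1 of Cn-Ctl over SM-Cn-/-, log2 difference -2.93 ± 0.55, limma adjusted p = 0.00231) and at 24 h (ratio 18.2, -3.18 ± 0.61, adjusted p = 0.00312), in every library. At 6 h the libraries did not overlap but the difference did not pass (interval -2.12 to 0.15, adjusted p = 0.444). The difference between the 2 h responses was -3.14 and did not pass either (adjusted p = 0.121), though it did without Cn-Ctl replicate 1 at 2 h (adjusted p = 0.0173). Without Cn-Ctl replicate 3, the 24 h difference was -2.82 with an adjusted p of 0.0854.

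In the deeper CsA experiment Has1 was read in every library. Signal in WT was 0.374, 0.393, and 0.466 untreated, 4.03, 5.18, and 3.93 at 2 h, and 15.5, 21.5, and 12.1 at 24 h, each step without overlap. The rise was 10.7-fold at 2 h (log2 change 2.41 ± 0.29, limma adjusted p = 2.56e-05) and 39.8-fold at 24 h (4.17 ± 0.29, adjusted p = 2.47e-07), the 8th largest at 24 h among 13738 genes. In CsA mice signal was 1.21, 1.161, and 0.866 untreated, 2.12, 4.25, and 2.31 at 2 h, and 2.60, 4.27, and 6.49 at 24 h. Untreated CsA libraries were all above untreated WT, by 2.63-fold in the means (interval of the log2 difference 0.17 to 1.40, limma adjusted p = 0.0576), a difference that edgeR and DESeq2 called. The rises in CsA were 2.68-fold at 2 h (1.06 ± 0.29, adjusted p = 0.0182) and 4.12-fold at 24 h (1.58 ± 0.29, adjusted p = 0.00457). With the replicate number as a block and only these groups in the fit, the paired form for CsA at 2 h, the adjusted p was 0.0806, and it was 0.102 without CsA replicate 2 at 2 h. At 24 h Has1 was lower in CsA than in WT by 3.68-fold (log2 difference -1.81 ± 0.29, limma adjusted p = 0.00424), and the difference between the 24 h responses was -2.60 ± 0.41 (adjusted p = 0.00336). In a fit of the 24 h groups alone, the arms no longer differed past the test (adjusted p = 0.0822).

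Mesothelial markers, genes of cells that line the outside of organs and are known to make hyaluronan, also varied between libraries. Their summed signal over 6 genes was 22.9 to 32.6 in untreated WT, 15.3 to 127 at 2 h, and 32.4 to 262 at 24 h, and in CsA it was 57.5 to 168 untreated, 2.50 to 8.91 at 2 h, and 40.9 to 72.4 at 24 h. In Cn-Ctl it was 2.77 and 3.29 untreated, with 3 of 6 markers at 0 reads. It was 2.91 to 24.5 at 2 h, 3.13 to 42.1 at 6 h, and 54.3 and 34.9 at 24 h there. In SM-Cn-/- it was 4.59 to 48.7 untreated, 3.91 to 25.7 at 2 h, 4.25 to 21.9 at 6 h, and 2.17 to 26.4 at 24 h. In CsA at 2 h Has1 rose while 6 of 6 of these markers fell and up to 1 of them was at 0 reads. At 24 h, where Has1 was higher in Cn-Ctl and WT, 1 of 6 and 3 of 6 of the markers were higher too. The part of these cells in the Has1 values was not tested at any time.

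Has2 signal was 0 reads in both untreated Cn-Ctl libraries, 0.0997, 1.81, and 0.689 at 2 h, 0.652, 0.859, and 1.72 at 6 h, and 0.347 and 3.49 at 24 h. SM-Cn-/- libraries had 0 to 11 reads, and all 3 at 24 h had 0, so that Cn-Ctl at 24 h was at least 4.49-fold higher in the mean, with 15 reads over 2 libraries (log2 difference -1.71, limma adjusted p = 0.249). In WT Has2 signal was 0.256, 0.731, and 0.628 untreated, 0.847, 1.78, and 0.283 at 2 h, and 1.41, 3.17, and 1.58 at 24 h. The rise at 24 h was 3.82-fold (log2 change 1.27 ± 0.41, limma adjusted p = 0.0236) and lost its call without the highest library, WT at 24 h replicate 2 (0.97, adjusted p = 0.124). CsA libraries ranged from 0.421 to 2.06 with overlap between untreated and 24 h. A long noncoding gene, Has2os, overlaps Has2, and whether reads were assigned by strand was not given in the sources used here.

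Cd44 (chromosome 2, 102811141 to 102901665, minus strand) was the member with the steadiest difference between genotypes. Signal in Cn-Ctl was 45.1 and 43.2 untreated, 250, 196, and 188 at 2 h, 152, 192, and 326 at 6 h, and 119 and 250 at 24 h. In SM-Cn-/- it was 58.5, 57.5, and 44.6 untreated, 64.3, 50.2, and 54.2 at 2 h, 51.2, 40.9, and 35.9 at 6 h, and 55.4, 45.2, and 32.1 at 24 h. Every treated Cn-Ctl library was above every SM-Cn-/- library, whereas the untreated ones overlapped. Within Cn-Ctl the means were 4.79-fold higher at 2 h (no test), 5.06-fold at 6 h (log2 change 2.25 ± 0.30, limma adjusted p = 8.93e-05), and 4.18-fold at 24 h (1.96 ± 0.33, adjusted p = 0.00117). SM-Cn-/- showed no change past the test at any time, with 95% intervals of -0.48 to 0.63 at 2 h, -0.89 to 0.23 at 6 h, and -0.85 to 0.26 at 24 h.

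The direct comparison gave lower Cd44 in SM-Cn-/- at 2 h (3.76-fold, log2 difference -1.90 ± 0.27, limma adjusted p = 0.000142), at 6 h (5.23-fold, -2.31 ± 0.27, adjusted p = 3.03e-05), and at 24 h (4.17-fold, -1.99 ± 0.30, adjusted p = 0.000449). The difference between the 2 h responses was -2.16 ± 0.40 (limma adjusted p = 0.0115), and Cd44 was the only 1 of the 5 members tested to pass. It includes the Cn-Ctl contrast at 2 h by which the set was chosen, so its p gives no independent support. That call was lost when either untreated Cn-Ctl library was left out (adjusted p = 0.081 without replicate 2 and 0.07 without replicate 3), at log2 differences of -2.19 and -2.13.

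In WT Cd44 signal was 40.4, 36.1, and 39.4 untreated, 128, 86.7, and 125 at 2 h, and 239, 324, and 142 at 24 h. In CsA it was 35.4, 33.5, and 32.1 untreated, 65.1, 96.1, and 90.2 at 2 h, and 79.0, 65.8, and 54.1 at 24 h. WT climbed from 2 h to 24 h without overlap (log2 change 0.99, limma adjusted p = 0.00393), whereas in CsA the 2 h and 24 h libraries overlapped (interval -0.83 to 0.17). Against untreated, the WT rise was 2.93-fold at 2 h (1.52 ± 0.24, limma adjusted p = 0.00028) and 6.08-fold at 24 h (2.51 ± 0.24, adjusted p = 2.11e-06). The CsA rise was 2.49-fold at 2 h (1.28 ± 0.24, limma adjusted p = 0.00171) and 1.97-fold at 24 h (0.95 ± 0.24, adjusted p = 0.0222), and the latter was lost in 5 of 6 fits that left out 1 library (adjusted p up to 0.0945). At 2 h CsA and WT did not differ past the test (interval -0.93 to 0.07). At 24 h CsA was 3.54-fold lower (log2 difference -1.75 ± 0.24, limma adjusted p = 0.00258), and the 24 h responses differed by -1.56 ± 0.33 (adjusted p = 0.0124). In a fit of the 24 h groups alone the adjusted p of the first was 0.0732.

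Cd44 is also known from leukocytes, and macrophage markers moved with some of these groups. Their sum over 6 genes was 38.7 and 53.0 in untreated Cn-Ctl, 56.0 to 163 at 2 h, 87.9 to 138 at 6 h, and 123 and 130 at 24 h. In SM-Cn-/- it was 61.0 to 109 untreated, 92.7 to 99.1 at 2 h, 108 to 150 at 6 h, and 74.6 to 137 at 24 h. Against untreated, 1 of the 6 was higher in Cn-Ctl at each of 2, 6, and 24 h, and 0 in SM-Cn-/-. In WT it was 54.8 to 73.8 untreated, 46.2 to 83.7 at 2 h, and 140 to 202 at 24 h. At 2 h in WT none of the 6 macrophage markers passed the test, and at 24 h all 6 were higher. The part of these cells in the 24 h value was not tested. In CsA the macrophage sum was 115 to 151 untreated, above WT, 75.1 to 89.1 at 2 h, and 117 to 159 at 24 h. Of 6 adventitial fibroblast markers 2 were higher in Cn-Ctl at each of 2, 6, and 24 h. Their sum was 402 and 659 in untreated Cn-Ctl and 749 to 1170 at 2 h, and it was 558 to 877 in untreated SM-Cn-/- and 876 to 980 at 2 h, where none passed. In WT at 24 h 3 of the 6 were higher and 1 was lower, with a sum of 885 to 1063 against 610 to 920 untreated. The part of macrophages or fibroblasts in the Cd44 values was not tested at any time.

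**Figure D2:**
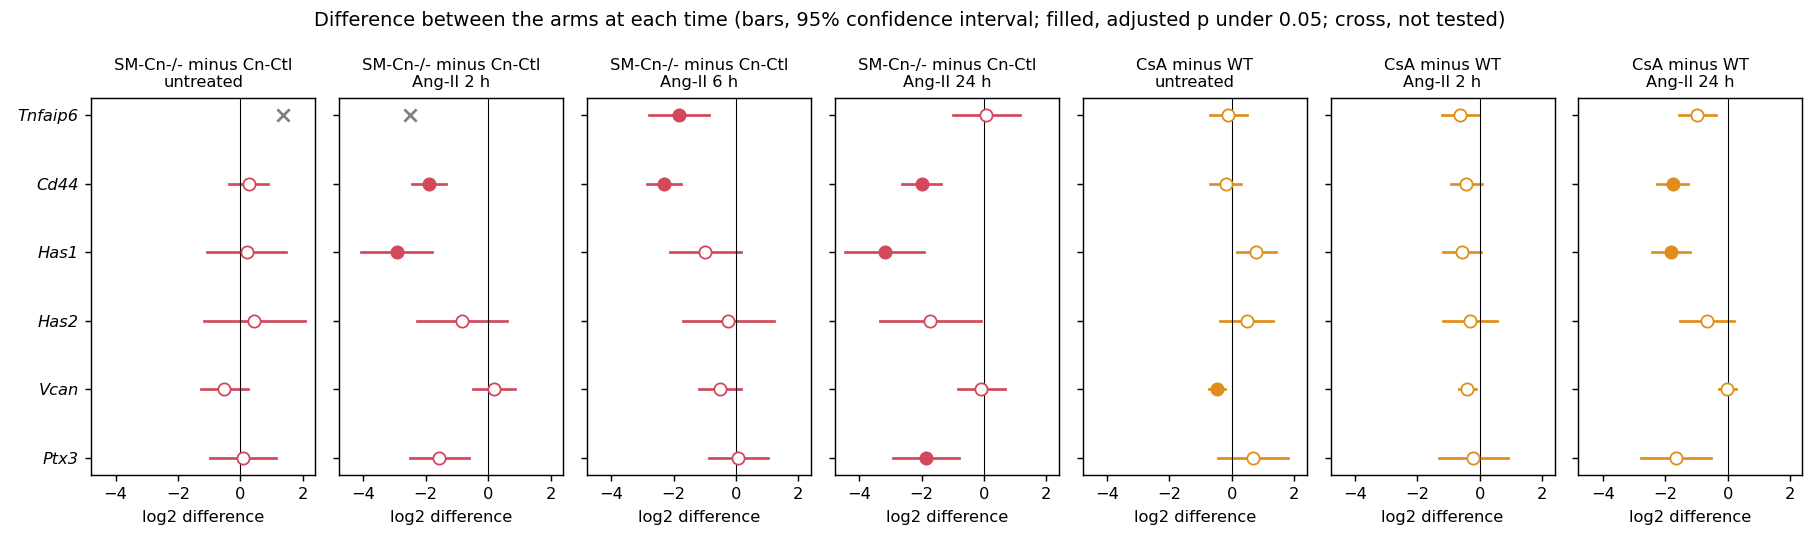
Log2 difference between the arms for each member, untreated and at each time of Ang-II, with 95% confidence intervals from the limma fit, filled circles where the adjusted p was under 0.05, and crosses where the choice of Tnfaip6 leaves no test. Cd44 lies at -1.90, -2.31, and -1.99 in SM-Cn-/- at 2, 6, and 24 h, and at -1.75 in CsA at 24 h only.

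Vcan (chromosome 13, 89655312 to 89742509, minus strand) had the highest mean signal per kb of exon among the members in all 4 untreated groups. Signal in Cn-Ctl was 167 and 161 untreated, 152, 173, and 209 at 2 h, 239, 222, and 64.7 at 6 h, and 113 and 92.5 at 24 h. In SM-Cn-/- it was 123, 126, and 96.9 untreated, 216, 236, and 159 at 2 h, 144, 96.7, and 83.5 at 6 h, and 88.4, 94.0, and 108 at 24 h. In SM-Cn-/- all 3 libraries at 2 h stood above the untreated ones, by 1.76-fold, without passing the test (interval of the log2 change 0.14 to 1.48, limma adjusted p = 0.275). In WT signal was 163, 179, and 142 untreated, 260, 184, and 202 at 2 h, and 145, 178, and 132 at 24 h, and in CsA 110, 121, and 116 untreated, 146, 171, and 169 at 2 h, and 151, 148, and 147 at 24 h. The 2 h rise was 1.33-fold in WT (log2 change 0.41 ± 0.13, limma adjusted p = 0.0318) and 1.40-fold in CsA (0.48 ± 0.13, adjusted p = 0.0157). After quantile normalization both missed the threshold (0.13 with an adjusted p of 0.474 in WT, and 0.29 with 0.0789 in CsA), and leaving out 1 library raised the adjusted p to as much as 0.173 in WT (replicate 1 at 2 h) and 0.0671 in CsA (replicate 2 at 2 h). In WT Vcan then fell by 0.50 on the log2 scale from 2 h to 24 h (limma adjusted p = 0.00616).

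Untreated CsA aortas had less Vcan than untreated WT, 1.40-fold in the means (log2 difference -0.47 ± 0.13, limma adjusted p = 0.014), without overlap, and the call was lost without WT replicate 2 (adjusted p = 0.067). In that comparison 25.2% of all genes passed the test. All 6 smooth muscle markers were lower in CsA, with a summed signal of 16245 to 18309 against 25562 to 35068. All 6 endothelial, all 6 macrophage, and all 6 adipocyte markers were higher, the last with a sum of 3628 to 6107 against 624 to 1158. Of 6 neutrophil markers 2 were higher and of 6 adventitial fibroblast markers 1, and no mesothelial or blood marker passed. Marker levels of several cell types thus differed between these untreated arms. The part of this in the Vcan value was not tested.

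Ptx3 (chromosome 3, 66219910 to 66225805, plus strand, within the span of Veph1) was low untreated and had its highest group mean at 24 h in each arm. Signal in Cn-Ctl was 1.38 and 1.19 untreated, 1.89, 4.33, and 6.81 at 2 h, 1.58, 1.80, and 1.10 at 6 h, and 7.29 and 14.1 at 24 h. All Cn-Ctl libraries at 2 h were thus above the untreated ones (no test), and those at 6 h overlapped the untreated ones. In SM-Cn-/- all 12 libraries lay between 0.566 and 3.36. The rise at 24 h in Cn-Ctl was 8.32-fold (log2 change 2.58 ± 0.56, limma adjusted p = 0.00749), and was lost without any 1 of 3 of its 4 libraries (adjusted p up to 0.141, without 24 h replicate 3). SM-Cn-/- was lower at 24 h by 4.27-fold (log2 difference -1.85 ± 0.51, limma adjusted p = 0.0364), a call that was lost in the fit with a replicate block (adjusted p = 0.056), in edgeR (0.0777), and without Cn-Ctl replicate 3 (-1.40, adjusted p = 0.413). At 2 h it was lower in every library, without passing (-1.56, interval -2.51 to -0.61, limma adjusted p = 0.0609).

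In WT Ptx3 signal was 0.966, 0.206, and 0.912 untreated, 0.847, 2.82, and 1.77 at 2 h, and 11.2, 21.97, and 10.2 at 24 h. The 24 h rise was 20.8-fold (log2 change 3.64 ± 0.52, limma adjusted p = 7.83e-05), the 15th largest among 13738 genes, and most of it came after 2 h (24 h against 2 h 2.70 ± 0.52, adjusted p = 0.000902). In CsA signal was 1.28, 2.06, and 0.828 untreated, 0.894, 2.47, and 1.10 at 2 h, and 1.45, 4.22, and 9.35 at 24 h. The CsA libraries at 24 h were spread from the untreated level upward, and the rise did not pass (1.30, interval 0.19 to 2.41, limma adjusted p = 0.13), though it did in DESeq2 and without replicate 1. At 24 h every CsA library lay below every WT library, at a log2 difference of -1.65 that did not pass (interval -2.76 to -0.54, adjusted p = 0.0729), and that passed without CsA replicate 3 (-2.22, adjusted p = 0.0267). The highest CsA library at 24 h, replicate 3, was also the highest of its group in neutrophil markers, whose sum over 6 genes ran from 6.43 to 102 there, and in Tnfaip6, Has1, and Has2, while it was the lowest in Cd44.

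Counts of members that passed the test are set beside the share of all genes that passed in the same comparison, in either direction. In Cn-Ctl 2 of 5 members passed at 6 h (Has1 and Cd44, both higher) and 3 of 5 at 24 h (Has1, Cd44, and Ptx3, all higher), where 3.97% and 5.62% of all genes passed. None of 5 passed between 6 h and 2 h in Cn-Ctl, where 1.67% of genes passed. Of the 5, 2 (Has1 and Ptx3) had an unadjusted p under 0.05, and edgeR called none. DESeq2 gave no adjusted p for 3 of the 5, so it could not call those, and called none of the rest. In WT 4 of 6 rose at 2 h against 21.4% of genes called, and 5 of 6 rose at 24 h against 35.0%. Of the 13738 genes tested there, 1562 were higher at 2 h and 2483 at 24 h. Between 24 h and 2 h in WT 3 rose and 2 fell, against 36.2% of genes called.

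In SM-Cn-/- no member passed in limma at 2, 6, or 24 h or between 6 h and 2 h, where 1.13%, 2.34%, 0.790%, and 1.41% of genes passed. At an unadjusted p under 0.05 there were 2 (Tnfaip6 and Vcan), 1 (Has1), 0, and 2 (Tnfaip6 and Vcan). In each of these comparisons edgeR called 0, while DESeq2 called Tnfaip6 between 6 h and 2 h. DESeq2 gave no adjusted p for 1 of the 6 members in each. In CsA 4 of 6 rose at 2 h against 20.1% of genes called, 2 of 6 at 24 h against 8.98%, and 1 fell between 24 h and 2 h against 18%.

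Between genotypes, none of 5 members passed untreated, where 0.0139% of genes passed in limma. There 0 members had an unadjusted p under 0.05, and edgeR called 0. DESeq2 gave no adjusted p for 4 of the 5, so it could not call those, and called 0. At 2 h 2 of 5 (Cd44 and Has1), at 6 h 2 of 6 (Cd44 and Tnfaip6), and at 24 h 3 of 6 members (Cd44, Has1, and Ptx3) were lower in SM-Cn-/-, against 3.70%, 1.98%, and 4.94% of genes called. The difference in 2 h response passed for 1 of 5, against 0.513%. Between CsA and WT, 1 of 6 passed untreated, none at 2 h, and 2 at 24 h, against 25.2%, 1.33%, and 5.58%. At 2 h there Tnfaip6 and Vcan had an unadjusted p under 0.05, edgeR called none, and DESeq2 called Vcan. The response differed for none of 6 at 2 h, against 0.146% (unadjusted p under 0.05 for Has1, which DESeq2 called and edgeR did not), and for 2 of 6 at 24 h, against 9.42%. These comparisons share libraries, so the counts are not independent of each other. Those that use the 2 h or untreated Cn-Ctl libraries are not independent of the choice of the set either.

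A list of 43 other genes that make, bind, or break down this matrix was also read, of which 38 could be tested between genotypes and 34 with CsA. After 24 h of Ang-II 6 rose and 2 fell in Cn-Ctl (a share of 21.1%), 0 rose and 1 fell in SM-Cn-/- (2.63%), 17 rose and 5 fell in WT (64.7%), and 6 rose and 1 fell in CsA (20.6%). Of all genes 5.62%, 0.790%, 35.0%, and 8.98% passed in the same comparisons. The median log2 changes over the list were 0.435, -0.20, 0.46, and 0.17, beside medians of -0.017, -0.0019, 0.0035, and -0.024 over all genes.

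Among enzymes that supply the sugar precursors of hyaluronan, 6 of 7 genes were higher in WT at 24 h, where 2483 of all 13738 genes were higher. They were Gfpt2 (log2 change 1.91), Uap1 (1.42), Pgm3 (1.01), Ugdh (1.00), Gfpt1 (0.62), and Gnpnat1 (0.42), and Ugp2 did not pass. Gfpt1 and Gfpt2 catalyse the entry step of the hexosamine pathway, Pgm3, Gnpnat1, and Uap1 carry it on to UDP-N-acetylglucosamine, and Ugdh makes UDP-glucuronic acid. In Cn-Ctl Gfpt2 (1.66, limma adjusted p = 0.00187) and Uap1 (1.05, adjusted p = 0.00637) rose at 24 h, and neither passed in SM-Cn-/-. Compared directly at 24 h, both were lower in SM-Cn-/-, Gfpt2 by a log2 difference of -1.24 (limma adjusted p = 0.00825) and Uap1 by -0.92 (adjusted p = 0.00891). Between CsA and WT at 24 h, Gfpt2 (-0.98), Ugdh (-0.70), Pgm3 (-0.57), Uap1 (-0.48), and Gfpt1 (-0.46) were lower in CsA, and the 24 h responses differed for Gfpt2 (-2.06), Uap1 (-1.02), and Ugdh (-0.68). Untreated CsA aortas started higher than WT in Gfpt2 (1.08) and Uap1 (0.54).

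Among the other roles, Has3, the remaining synthase, rose at 2 h in WT (log2 change 2.17, limma adjusted p = 6.23e-05) and in CsA (0.98, adjusted p = 0.0251), and was lower in CsA than in WT at 2 h (-1.48, adjusted p = 0.0263). The versican-cleaving proteases Adamts1 and Adamts9 rose at 2 h in WT (2.07 and 1.97), in CsA (2.09 and 1.02), and in SM-Cn-/- (1.53 and 1.30), so that at 2 h they passed the test in SM-Cn-/- where no member did. At 2 h both were nevertheless lower in SM-Cn-/- than in Cn-Ctl (-1.35 and -0.996). Adamts4 rose at 24 h in Cn-Ctl (2.83) and WT (2.54). Thbs1 (thrombospondin-1, a binding partner of TSG-6) rose at 24 h in Cn-Ctl (3.65), WT (3.44), and CsA (1.96), and was lower in SM-Cn-/- than in Cn-Ctl at 24 h (-2.37, limma adjusted p = 0.00129). Hyal1, a lysosomal hyaluronidase, fell at 24 h in Cn-Ctl by 0.97 and in WT by 1.41 on the log2 scale, and the link protein gene Hapln1 fell by 2.10 in WT. Lyve1, a hyaluronan receptor of lymphatic endothelium and some macrophages, rose at 6 h in both genotypes (1.60 in Cn-Ctl, 1.55 in SM-Cn-/-). Of the inter-alpha-inhibitor chain genes, whose main source is known to be the liver, Itih2, Itih3, and Itih5 fell in WT at 24 h by 0.82, 0.52, and 0.68.

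**Figure D3:**
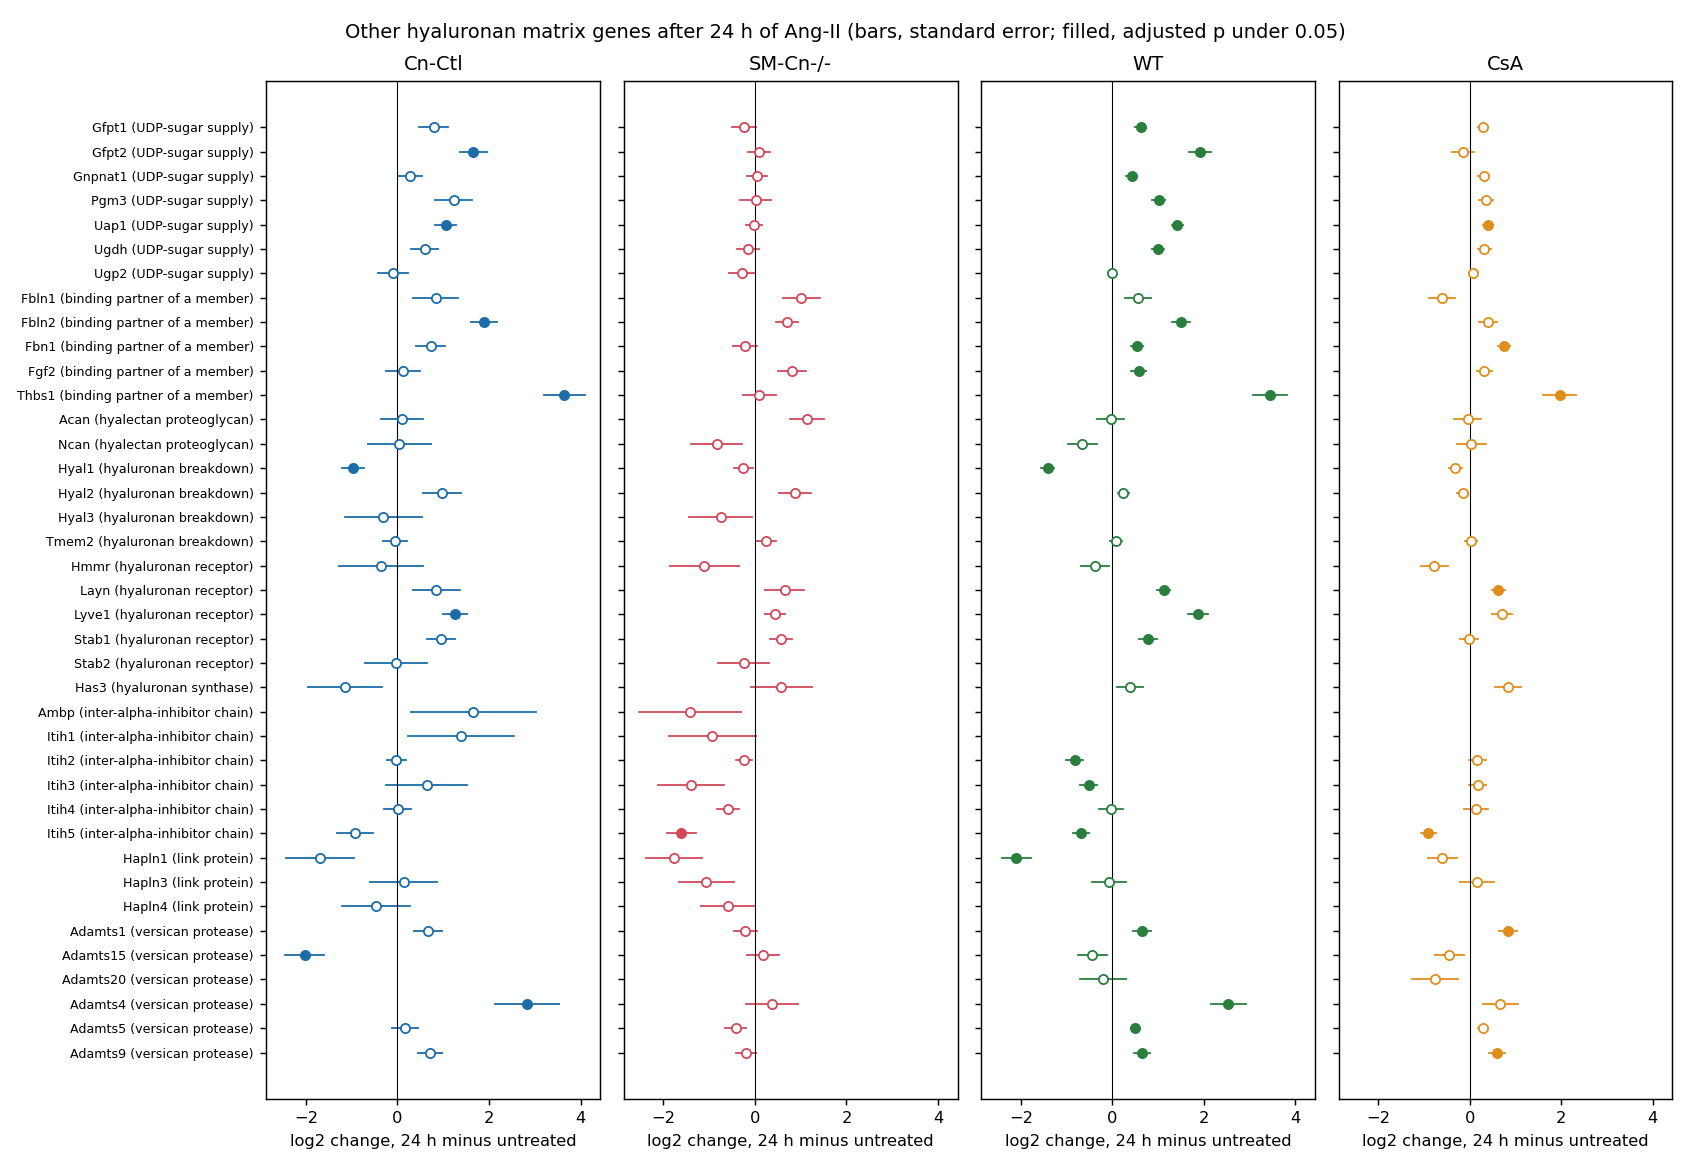
Log2 change after 24 h of Ang-II for the other genes of the matrix, ordered by role, in the 4 arms, with bars for the standard error and filled circles where the adjusted p was under 0.05. In WT 17 genes lie filled on the right and 5 on the left, in SM-Cn-/- 0 and 1.

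The genes whose values followed Tnfaip6 most closely were Abra, Dnajb1, Cdr2, Ier5, and Hsph1. Genes in both tables with a mean signal of at least 2 in each were ranked by the lower of their Pearson correlations with Tnfaip6 over the 22 libraries of the genotype experiment and over the 18 of the CsA experiment, on log2 values. The libraries share groups and the 2 h peak, so these are descriptions with no p. The correlations were 0.924 and 0.916 for Abra, which encodes an actin-binding protein of muscle, 0.905 and 0.917 for Dnajb1, a cochaperone, 0.903 and 0.929 for Cdr2, 0.891 and 0.971 for Ier5, an immediate early gene, and 0.890 and 0.943 for Hsph1, a heat shock protein. Of the other members Cd44 stood 412th of 11819 genes ranked (0.681 and 0.669), Has1 1000th, Vcan 1992nd, and Ptx3 3289th (0.175 and 0.170), so the members did not share 1 time course.

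**Figure D4:**
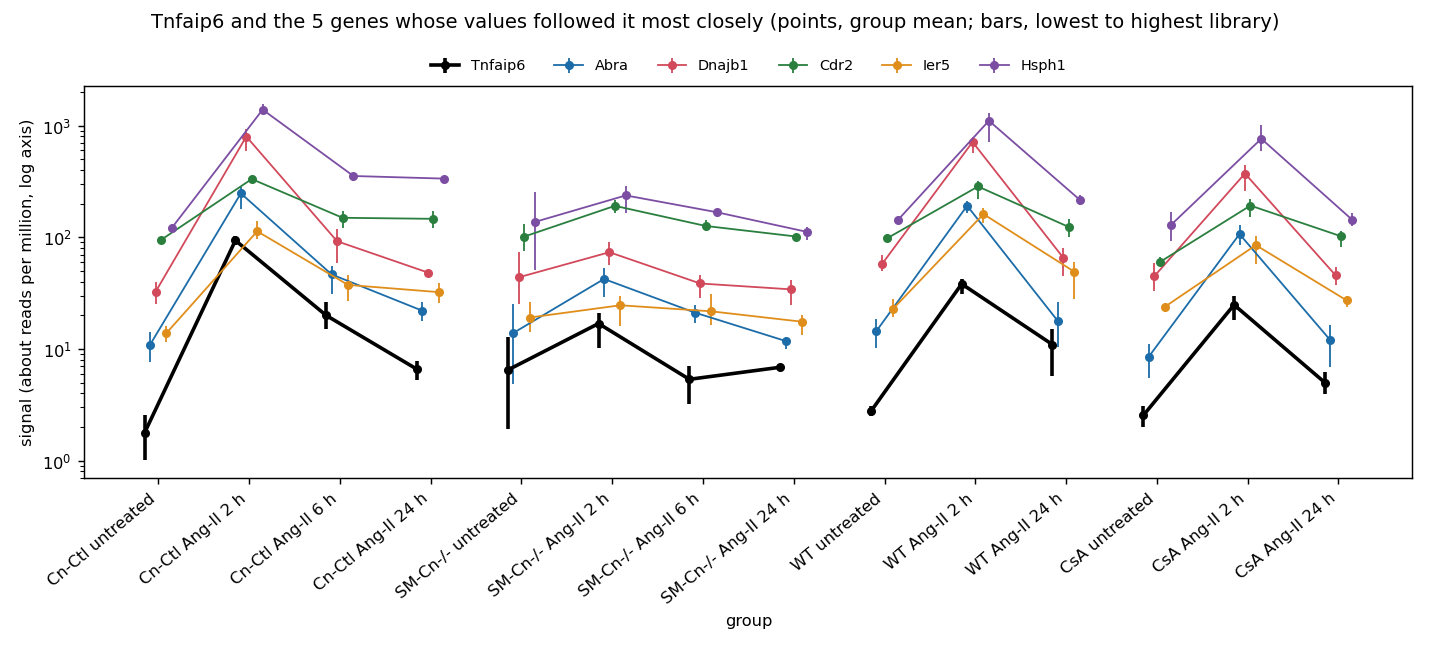
Group means of Tnfaip6 and of the 5 genes most like it (signal, log axis), with bars from the lowest to the highest library of each group. All 6 are highest at 2 h in each arm, and the 2 h mean of Abra is 247 in Cn-Ctl against 42.3 in SM-Cn-/-.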

How the data were processed

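Polyadenylated RNA of pooled mouse aortas was sequenced in 40 libraries. Per the submitters' processing notes and the methods, reads were assigned to GRCm38 genes with Bowtie 0.12.7 and RSEM 1.16. The values deposited by the authors are a normalized signal, reads plus 0.5 per scaled library size, and whole reads were recovered for 100.0% of values in every library (within 0.05 of a read). Protein-coding genes (GENCODE M21) with a signal of at least 1 in at least 2 libraries were tested with limma 3.58.1 in R 4.3.3 on log2(signal + 0.5), with 1 model over all groups of each experiment and Benjamini-Hochberg adjustment. Recovered reads were also tested with edgeR 4.0.16 and DESeq2 1.42.0. Alternatives were a pseudocount of 2, other filters and scalings, only the groups compared, the replicate number as a block, and leaving out each library. The block was added as a second form for CsA at 2 h against untreated after seeing the data: of 16 comparisons with 3 same-numbered pairs, only there did every pair deviate together (lowest correlation 0.17). The limma fit was tested on simulated reads, for 1 comparison of each experiment. The other tests, alternatives, and steps were not tested on simulated data.

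The members, gene lists, and motifs were chosen with earlier results of these data known. Named genes are the 6 members, pathway genes called in the comparison described, or up to 4 with the highest mean level, and the 5 genes most like Tnfaip6. Ugp2 was named after its values were seen. Libraries are pools of 3 aortas numbered 1 to 3, and per the methods of the study the pools of a group hold different aortas. The p-values therefore measure the spread between pools and not between single mice. Intervals of read ratios and the floor of 3 reads cover counting error only.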

Additional observations from a re-analysis of the deposited data

Results flagged for a closer look

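The response to Ang-II differed between arms in 3 tests. For Cd44 the 2 h response in SM-Cn-/- minus that in Cn-Ctl was -2.16 on the log2 scale (limma adjusted p = 0.0115). That test includes the Cn-Ctl contrast at 2 h by which the set was chosen, so it gives no independent support. For Has1 and Cd44 the 24 h response in CsA minus that in WT was -2.60 (limma adjusted p = 0.00336) and -1.56 (adjusted p = 0.0124).

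In 3 further cases every library of Cn-Ctl moved one way from the untreated mean and every SM-Cn-/- library the other. Cd44 at 6 h changed by 2.25 in Cn-Ctl and -0.33 in SM-Cn-/-, a difference of -2.58 that was not tested. Has2 at 24 h changed by 1.66 and -0.51, a difference of -2.17 that was not tested and that rests on 15 reads in Cn-Ctl and 0 in SM-Cn-/-. Ptx3 at 2 h changed by 1.30 and -0.36, a difference of -1.66 that did not pass in the fit of the 2 h responses (limma adjusted p = 0.507).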

How the results depend on the processing

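Of 39 member calls, 11 were lost in at least 1 alternative without leaving out a library and 12 with at least 1 library left out. None of 377 and 240 such fits reversed a direction. Counts of members called that moved by over 1.5 times, or to or from 0, were these. For Cn-Ctl at 6 h against untreated the count was 2, and 1 with a pseudocount of 2 or only the groups compared. For SM-Cn-/- against Cn-Ctl at 6 h it was 2, and 1 with only the groups compared. DESeq2 gave 1 for 0 in SM-Cn-/- at 6 h against 2 h, 5 for 2 in CsA at 24 h, 2 for 1 in CsA at 24 h against 2 h, 1 for 0 in CsA against WT at 2 h, and 1 for 0 in the difference of their 2 h responses. In untreated CsA against WT, edgeR and DESeq2 gave 2 for 1. With only the groups compared, CsA at 24 h gave 1 for 2, and CsA against WT at 24 h gave 0 for 2. Smaller shifts were 3 for 2 in edgeR and DESeq2 (CsA against WT at 24 h), 3 for 2 in DESeq2 (their 24 h responses), and 2 for 3 in edgeR (genotypes at 24 h). For the genotypes at 2 h DESeq2 called 1 of 2 and gave no adjusted p for 3 members. Quantile normalization lost the Vcan calls in WT at 2 h, CsA at 2 h, and WT at 24 h against 2 h (adjusted p = 0.474, 0.0789, and 0.0942).

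With 1 library left out, counts ran from 0 to 1 in SM-Cn-/- at 2 h, 1 to 2 in Cn-Ctl at 6 h, 0 to 2 in SM-Cn-/- at 6 h against 2 h, 1 to 2 between genotypes at 6 h, 1 to 3 at 24 h, 0 to 2 for their 2 h responses, 2 to 4 in CsA at 2 h, 1 to 2 in CsA at 24 h, 1 to 2 for CsA at 24 h against 2 h, and 0 to 1 for untreated CsA against WT. The cause was not tested.

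With the replicate block 1 of 39 calls was lost, Ptx3 in SM-Cn-/- against Cn-Ctl at 24 h (adjusted p = 0.056). With the replicate block and only the groups compared, which the pairing check allowed for CsA at 2 h, the count was 3 and Has1 was lost (adjusted p = 0.0806). The replicate block changed no other call.

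Reads limit Has1 and Has2 in the genotype experiment, where 1 read is worth a signal of 0.092 to 0.347, against 0.0256 to 0.0548 in the CsA experiment.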
